A study of Mus musculus with 65 samples.

Results

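The response of brainstem gene expression to an antisense oligonucleotide (ASO) against Atxn1 was compared between medulla and pons of knockin mice at 28 weeks of age. The comparison rests on 23 of the 65 libraries of the series, taken by tissue, age, genotype and treatment as the labels give them: 7 medulla libraries and 4 pons libraries from Atxn1[82Q] knockin mice given the ASO, and 8 medulla libraries and 4 pons libraries from knockin mice given vehicle. All mice were C57BL/6J. The vehicle controls carried the same expanded allele, so the contrast within each region is between agents, not between genotypes. Vehicle-treated wild type mice of the same age (8 medulla and 4 pons libraries) entered no contrast and are given as reference levels. Medulla came in 2 labelled batches (4 ASO and 4 vehicle libraries in batch 1, 3 ASO and 4 vehicle libraries in batch 2), while pons libraries carry no batch label. Nothing in the labels ties a library to a mouse of its own, so p-values measure the spread between libraries, which may be technical in part. The column headers of the counts end in numbers that differ within each group. Medulla batch 1 and pons libraries share these numbers, and the headers do not state what the numbers are.

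Spinocerebellar ataxia type 1 is caused by an expanded CAG repeat in ATXN1, which lengthens a glutamine tract in ataxin-1, a nuclear protein that acts with the repressor Capicua. An ASO binds its target transcript inside the cell and directs its cleavage. The medulla holds the motor and autonomic nuclei that control breathing, swallowing and heart rate. The pons lies in front of it and holds the pontine nuclei, the locus coeruleus and further cranial nerve nuclei. Both contain neurons, astrocytes, which clear glutamate and potassium, oligodendrocytes, which form myelin, and microglia, the resident phagocytes. In bulk tissue, a smaller number of cells of a type and less RNA per cell cannot be told apart.

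Depth was high, with 62.6 to 105 M counts per library, and 21314 genes were tested. Levels are given as CPM, counts divided by the library size after scaling with TMM factors. Effects are log2 fold changes of ASO against vehicle with their standard errors (SE) from edgeR's quasi-likelihood test, and a gene was called at a Benjamini-Hochberg adjusted p under 0.05 over all genes tested. The medulla effect minus the pons effect is the interaction: it is negative where the ASO effect was more positive in pons. Levels of the Hox genes, which are expressed in medulla and little in pons, checked the dissection. Their mean log2 CPM was from 2.70 to 3.94 in 11 of the 15 medulla libraries and from -1.14 to 0.48 in the 8 pons libraries. It was 1.73 in medulla ASO replicate 3, -0.07 in medulla ASO replicate 6, -0.31 in medulla ASO replicate 7 and 0.09 in medulla vehicle replicate 8. These 4 libraries, 3 of the 7 with ASO and 1 of the 8 with vehicle, are named below as low in Hox genes, and 1 wild type medulla library was also low, at -0.25. Medulla vehicle replicate 2 had the highest choroid plexus list, at a mean log2 CPM of 7.68 against 1.22 to 6.05 in the other knockin medulla libraries. Results that rest on these libraries are given with and without them.

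Atxn1 (ENSMUSG00000046876, chromosome 13, 45549755 to 45965008 on the minus strand of GRCm38), the target of the ASO, was measured first. In medulla of ASO-treated knockin mice it was at 25.3, 50.4, 31.4, 26.9, 33.6, 31.2 and 34.1 CPM in replicates 1 to 7. In medulla of vehicle-treated knockin mice it lay between 40.7 and 48.9 CPM, with a median of 44.4 CPM over 8 libraries. In pons the ASO-treated libraries had 26.3, 51.9, 36.3 and 29.6 CPM, and the vehicle-treated libraries had 59.8, 56.9, 58.2 and 44.5 CPM. In both regions the library labelled ASO replicate 2 was as high as vehicle libraries, and the other ASO libraries were below all vehicle libraries of their region. The column headers of both libraries labelled ASO replicate 2 end in the same number, so they may come from 1 mouse. Wild type libraries had 34.9 ± 3.20 CPM in medulla (SD, n = 8) and 39.8 ± 1.66 CPM in pons (SD, n = 4).

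The mean Atxn1 level was 11.6 CPM lower with ASO in medulla (exact two-sided permutation test within batches, 2450 arrangements, p = 0.0061). It was 18.8 CPM lower in pons (exact two-sided permutation test, p = 0.057, smallest possible 0.029). Without the libraries labelled ASO replicate 2, the difference was 14.3 CPM in medulla and 23.9 CPM in pons. The exact permutation p in pons was then 0.029, the smallest possible with the libraries left. The libraries left out were singled out by their Atxn1 level, the value tested, so results without them are no separate support for a fall. Within medulla batch 1 alone the level was 10.2 CPM lower with ASO (exact permutation p = 0.14), and within batch 2 alone 13.2 CPM lower (exact permutation p = 0.029, the smallest possible). Over all genes, the fall passed edgeR's test for the mean effect of both regions, where Atxn1 fell by 0.52 on the log2 scale (SE 0.12, adjusted p = 0.0171). That call was lost without pons ASO replicate 1 (adjusted p = 0.0578) and without the 4 medulla libraries low in Hox genes (adjusted p = 0.0864). The single-region effects were -0.43 in medulla and -0.61 in pons and did not pass (edgeR adjusted p = 0.171 and 0.208). They passed without the library labelled ASO replicate 2 of the region concerned (adjusted p = 0.00816 and 0.0313), again a library singled out by its Atxn1 level. The interaction for Atxn1 was 0.18 (95% interval -0.31 to 0.66, edgeR unadjusted p = 0.453), so a difference in the size of the reduction was not detected, and differences within that interval could not be told from 0.

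**Figure D1:**
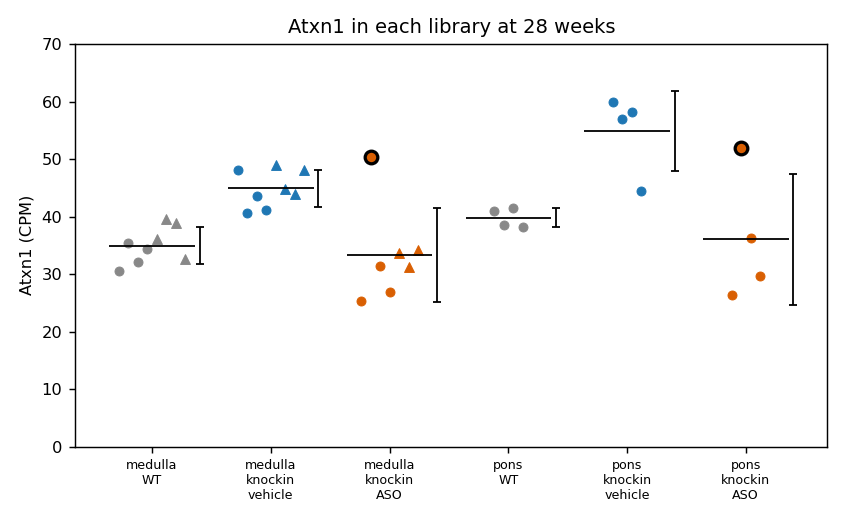
Atxn1 level (y axis, CPM) in each library at 28 weeks, by region and group (x axis). Circles are libraries of medulla batch 1 and pons, triangles are medulla batch 2, black rings mark the libraries labelled ASO replicate 2, horizontal lines are group means and bars are 1 SD; the ringed library of medulla (50.4 CPM) lies above the vehicle libraries and that of pons (51.9 CPM) within their range.

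The question of the comparison was which genes respond alike in both regions and which respond in 1 region more than in the other. No gene showed a called difference between the ASO effects of medulla and pons: 0 of 21314 genes passed (0% called), and the smallest adjusted p of the interaction was 0.9996 by edgeR's quasi-likelihood test. At an unadjusted p under 0.05 there were 803 genes (3.77%), a smaller share than a threshold of 0.05 gives by itself when no gene differs. Of these, 362 (1.7%) had a more positive effect in medulla and 441 (2.07%) a more positive effect in pons. The fit counts medulla and pons libraries that may come from 1 mouse as separate, so p-values of the interaction may be too large. DESeq2 and limma's voom also called 0, with 851 and 763 genes at an unadjusted p under 0.05. The interaction had 0 calls, too, in each of the 23 fits without 1 library, in a fit with each header number as a block, and without the libraries labelled ASO replicate 2. Among the 13950 genes whose average log2 CPM reached 1, the 95% interval of the interaction reached 0.21 log2 units to either side at the median gene (quartiles 0.15 and 0.31). These widths are not adjusted for the number of genes tested and set no limit of detection.

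Each region on its own gave few calls. In medulla 204 genes were called (0.957% of those tested), 164 higher (0.769%) and 40 lower (0.188%) with ASO, beside 2545 (11.9%) at an unadjusted p under 0.05. In pons 3 genes were called (0.0141%), all higher, beside 2221 (10.4%) at an unadjusted p under 0.05. The mean of both regional effects, which gives each region the same weight, had 732 calls (3.43%), 549 higher (2.58%) and 183 lower (0.859%), with a median size of 0.31 log2 units, beside 3513 (16.5%) at an unadjusted p under 0.05. Of the 732 genes, 178 were also called in medulla, 3 in pons and 553 in neither region alone. The fit has no term for the header number that medulla batch 1 and pons libraries share. Libraries that may come from 1 mouse thus count as separate, so p-values of the mean effect may be too small and those of the interaction too large. A gene called in medulla and not in pons is not shown to differ between them, since the interaction was called for 0 genes. The counts rested on single libraries: the number of calls in medulla was 43 without ASO replicate 6 and 415 without the library labelled ASO replicate 2. The pons count was 0 without ASO replicate 1 and 143 without the library labelled ASO replicate 2. The mean-effect count was 246 without pons ASO replicate 1 and 1144 without medulla vehicle replicate 2. Without the 4 medulla libraries that were low in Hox genes, 0 genes were called in medulla (2097 at an unadjusted p under 0.05) and 337 in the mean effect. With batch 1 as the only medulla libraries, 0 genes were called in medulla and 76 in the mean effect; with batch 2 as the only medulla libraries, 248 and 631.

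The direction of the ASO effect was compared between the regions, gene by gene. Of the 204 medulla calls, 200 (98.0%) had an effect of the same sign in pons, against 62.5% of all genes tested. Their median effect was 0.33 in medulla and 0.23 in pons, and 138 of them had the same sign and an unadjusted p under 0.05 in pons, where 10.4% of all genes had one of either sign. The 4 batch 1 libraries of a treatment in medulla and the 4 pons libraries share header numbers, and the part of shared mice in this likeness was not tested. Medulla batch 2 carries other numbers than pons. Fitted with batch 2 alone, medulla gave 248 calls, of which 215 (86.7%) had the same sign in pons, against 57.9% of all genes; their median effect was 0.40 in medulla and 0.12 in pons. Medulla ASO replicates 6 and 7 and vehicle replicate 8, which were low in Hox genes, belong to batch 2. Across the medulla calls, the effects of both regions correlated at 0.46 with batch 2 alone and at 0.89 with all libraries (Pearson). Across the genes called higher in medulla, the correlation was 0.07 with batch 2 alone and 0.83 with all libraries. These shares and correlations describe the genes of these libraries and no test was made of them. In the plot of both regional effects, the marked gene groups differ in where they lie against the line of equal effects.

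**Figure D2:**
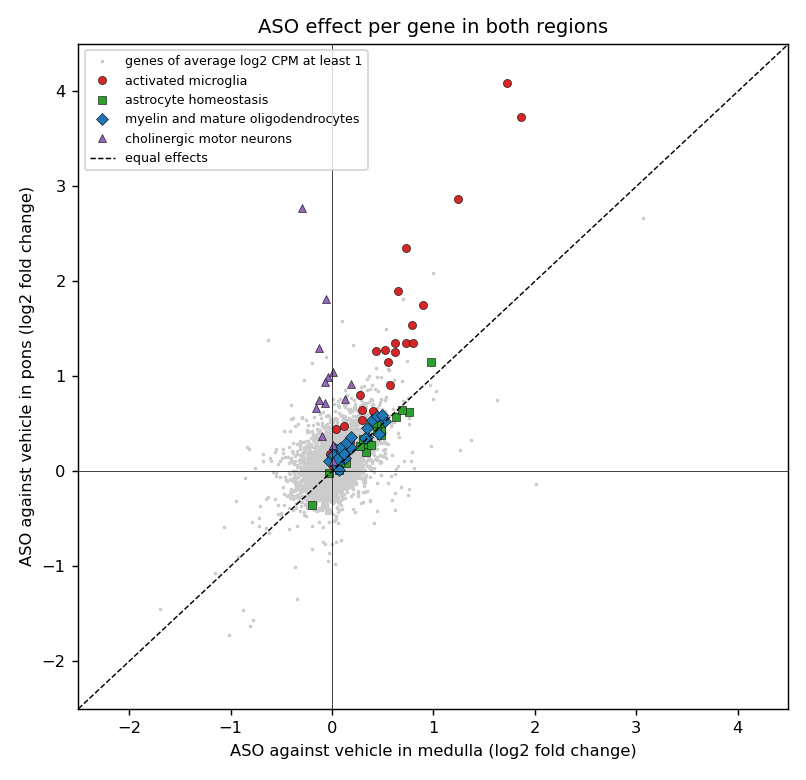
ASO effect in medulla (x axis) against ASO effect in pons (y axis), both as log2 fold changes, for genes whose average log2 CPM reached 1 (grey) and for the tested members of 4 gene lists (coloured). The dashed line marks equal effects; genes of resting astrocyte function lie on both sides of it (7 of 22 with a more positive effect in pons), most myelin (21 of 23) and activated microglia genes (26 of 27) on the pons side, and cholinergic motor neuron genes near 0 in medulla and above 0 in pons, while the interaction was called for none of them.

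The genes called in both regions separately were 2, Ptprc and Dock8, which is 0.00938% of the genes tested, 0.980% of the medulla calls and 66.7% of the pons calls. Ptprc (chromosome 1, 138062861 to 138175708) encodes CD45, a phosphatase on the surface of all white blood cells, microglia included. It was at 8.54, 5.57, 7.01, 6.76, 5.92, 6.39 and 5.89 CPM in the 7 medulla ASO libraries and at 3.29 to 6.21 CPM, with a median of 4.41 CPM, in the 8 medulla vehicle libraries. Pons libraries had 11.7, 5.63, 8.39 and 7.45 CPM with ASO and 3.79, 3.55, 3.66 and 3.96 CPM with vehicle. The groups did not overlap in pons, and in medulla vehicle replicate 8, at 6.21 CPM, reached into the ASO range. Ptprc rose by 0.56 in medulla (log2, SE 0.13, adjusted p = 0.0449) and by 1.15 in pons (SE 0.18, adjusted p = 0.0256) in edgeR's test. Its interaction was -0.59 (95% interval -1.06 to -0.12, unadjusted p = 0.0156), or -0.74 to -0.38 without 1 library at a time, and did not pass the adjustment (adjusted p = 0.9996). The medulla call was lost in 18 of the 23 fits without 1 library, with adjusted p up to 0.107, and without the libraries low in Hox genes (adjusted p = 0.188). The pons call was lost without pons ASO replicate 1 or 3 or pons vehicle replicate 1, 2 or 3, with adjusted p up to 0.177.

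Dock8 (chromosome 19, 24999534 to 25202432), a guanine exchange factor for Cdc42 that is best known from immune cells, was at 5.96, 5.31, 5.19, 5.51, 5.56, 6.30 and 6.25 CPM in the medulla ASO libraries. The medulla vehicle libraries had 4.22 to 5.05 CPM, with a median of 4.64 CPM, all below the ASO libraries. The pons libraries had 7.10, 5.77, 6.88 and 5.16 CPM with ASO and 4.10, 4.17, 4.69 and 3.83 CPM with vehicle, again without overlap. Of all genes tested, 0.0798% had every ASO library above every vehicle library in medulla and 3.32% in pons. Dock8 rose by 0.33 in medulla (SE 0.07, adjusted p = 0.0195) and by 0.57 in pons (SE 0.09, adjusted p = 0.0292), with an interaction of -0.24 (95% interval -0.48 to 0.01) in edgeR's test. The medulla call was lost without medulla ASO replicate 1 or 6, and the pons call without pons ASO replicate 1 or 3 or pons vehicle replicate 1 or 2. Both were lost without the libraries low in Hox genes (adjusted p = 0.262 and 0.0818).

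The third pons call was Fam227b (chromosome 2, 125983483 to 126152004), a protein-coding gene of low level whose exons overlap those of Galk2 on the other strand. It was at 0.959, 0.714, 0.832 and 0.657 CPM with ASO and at 0.216, 0.259, 0.323 and 0.226 CPM with vehicle in pons. In medulla it was at 0.739 to 1.73 CPM with ASO and 0.690 to 1.37 CPM with vehicle. The groups were apart in pons and overlapped in medulla. Wild type libraries had 0.924 ± 0.058 CPM in pons (SD, n = 4), above the vehicle-treated knockin libraries. The effect was 1.62 in pons (SE 0.23, adjusted p = 0.0105) and 0.59 in medulla (SE 0.15, adjusted p = 0.0660), and the interaction was -1.03 (95% interval -1.61 to -0.45, unadjusted p = 0.00119, adjusted p = 0.9996, edgeR). The pons call was lost without pons ASO replicate 1 or 3 or pons vehicle replicate 1 or 2. With the header numbers treated as blocks through an estimated correlation (0.0704, limma's voom), 0 genes were called in pons and 0 in both regions, while 218 were called in medulla and 557 in the mean effect.

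Genes of microglia rose in the mean effect of both regions. Of 27 genes on a list for activated microglia (phagocytic and lipid-handling genes that microglia express in disease), 18 rose and 0 fell. Of 20 genes of homeostatic microglia, 12 rose and 0 fell, where 2.58% of all genes rose. In the single-region tests 1 gene of the activated list was called higher in medulla and 1 in pons. The homeostatic list had 0 calls in either region. Of all genes tested, 0.769% were called higher in medulla and 0.0141% in pons. The median effect of the activated list was 0.52 in medulla and 1.15 in pons, where the median over all genes tested was -0.004 and -0.008. The median interaction of the list was -0.56, where that over all genes was 0.006. Of its 27 members 26 had a more positive effect in pons, and 7 had an unadjusted p under 0.05 in that direction, a side that held 2.07% of all genes. None of these differences passed the adjustment. For the homeostatic list the medians were 0.22 in medulla and 0.40 in pons. Within it, the complement gene C1qb rose by 0.55, Trem2, a lipid-sensing receptor, by 0.74 and Fcrls, an Fc receptor-like marker of microglia, by 0.83 in the mean effect (log2, edgeR adjusted p = 0.0158, 0.00655 and 0.00655).

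Cst7, which encodes cystatin F, an inhibitor of lysosomal cathepsins, had the largest mean effect of the named genes. In medulla it was at 2.66, 0.589, 0.832, 2.28, 0.423, 1.42 and 0.389 CPM with ASO and at 0.140 to 0.452 CPM, with a median of 0.369 CPM, with vehicle. The pons values were 6.89, 0.306, 1.62 and 2.10 CPM with ASO and 0.189, 0.0862, 0.223 and 0.133 CPM with vehicle. The spread among ASO libraries was wide: replicate 1 was highest in both regions, and the library labelled ASO replicate 2 was the lowest ASO library of pons. The mean effect of Cst7 was 2.91 (log2, SE 0.46, adjusted p = 0.00216, edgeR), from 1.72 in medulla and 4.09 in pons. Cst7 had an interaction of -2.36 (95% interval -4.26 to -0.47, unadjusted p = 0.0172), or -2.73 to -1.34 without 1 library at a time. Its call in the mean effect was lost when header numbers were treated as blocks (adjusted p = 0.0529 with an estimated correlation). Itgax, the CD11c integrin, rose by 2.80 in the mean effect (SE 0.48, adjusted p = 0.00339, edgeR) and lost its call in the same way (adjusted p = 0.0505 with an estimated correlation).

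The members of the activated list are also shown together by library. Their mean log2 CPM in pons was 4.97, 3.43, 4.05 and 4.16 in ASO replicates 1 to 4 and 3.05, 2.86, 3.16 and 3.24 in vehicle replicates 1 to 4. In medulla it was 4.38, 3.27, 3.83, 4.28, 3.49, 3.98 and 3.68 in ASO replicates 1 to 7 and from 2.95 to 3.65 in vehicle libraries. The groups were apart in pons and overlapped in medulla through the library labelled ASO replicate 2 and ASO replicate 5. Wild type libraries had 3.33 to 3.77 in medulla and 3.21 to 3.33 in pons. Median summed levels of the list in medulla were 3084 CPM in wild type, 2518 CPM with vehicle and 3071 CPM with ASO. In pons they were 2854, 2367 and 3052 CPM. Of the 27 genes, 22 were called without both libraries labelled ASO replicate 2, 11 without pons ASO replicate 1, 11 without the libraries low in Hox genes, and 11 with header numbers as blocks through the correlation. With medulla batch 1 or batch 2 alone, 5 and 9 were called. The homeostatic list had 3 calls without pons ASO replicate 1, 7 without pons ASO replicate 3, 4 without pons vehicle replicate 1 or 2, and 3 without the libraries low in Hox genes. With medulla batch 1 alone 0 of its genes were called, with batch 2 alone 3, and with header numbers as blocks through the correlation 8.

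**Figure D3:**
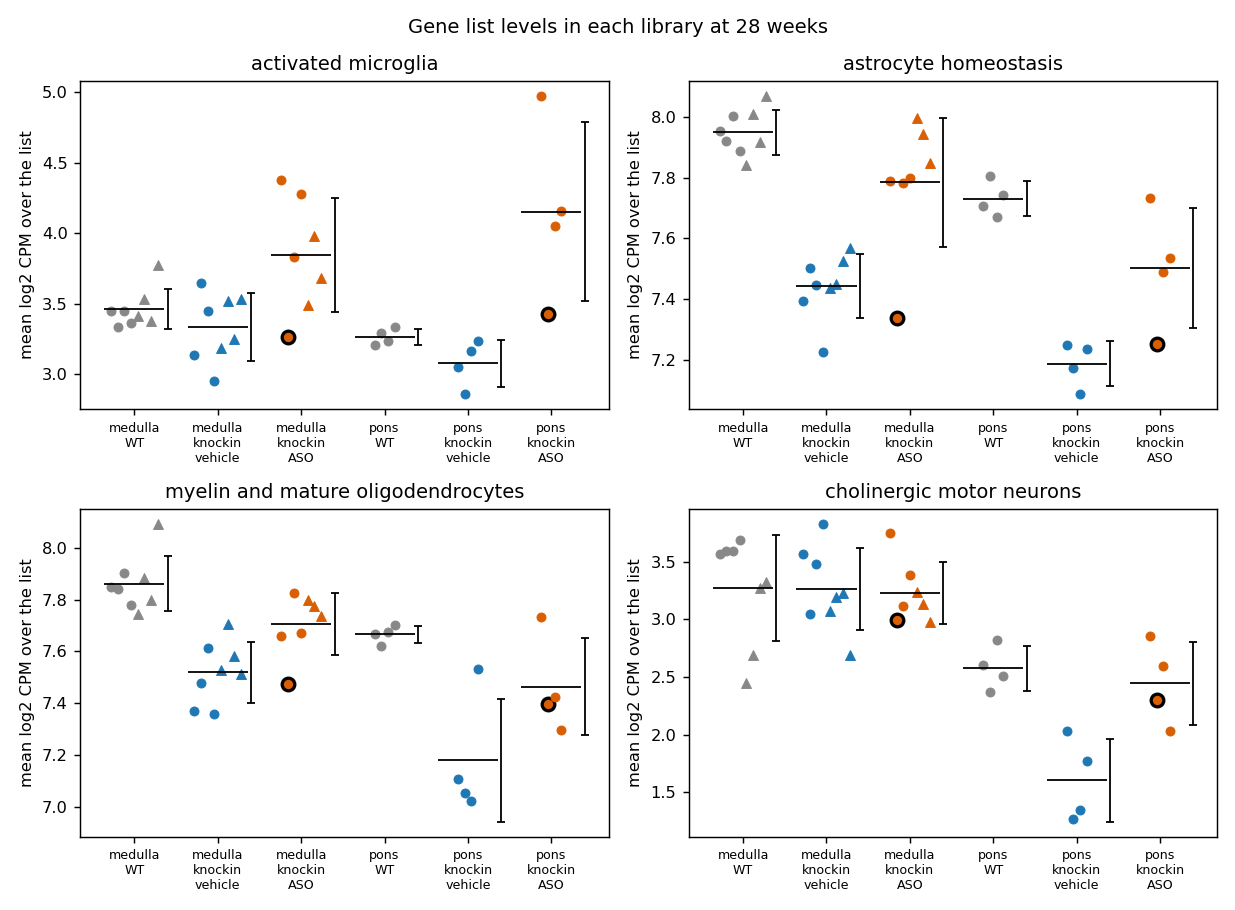
Mean log2 CPM over the members of 4 gene lists (y axis of each panel) in each library at 28 weeks, by region and group (x axis), with symbols as in the plot of Atxn1. Pons ASO libraries lie above pons vehicle libraries on the activated microglia list, at 3.43 to 4.97 against 2.86 to 3.24, and the ringed libraries labelled ASO replicate 2 are the lowest ASO libraries of both regions on the microglia and astrocyte lists.

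Genes of complement, Fc receptors and chemokines, which microglia use to bind debris and to attract other cells, showed called rises in the mean effect. Of all genes tested, 2.58% rose and 0.859% fell in that effect. Of 16 tested genes (17 on the list) for complement and Fc receptors, 9 rose and 0 fell, with medians of 0.36 in medulla and 0.68 in pons. In medulla 12 of the 16 had a positive effect and 4 a negative one, and in pons all 16 had a positive one. C3ar1, the receptor for the complement fragment C3a, was at 5.40, 2.11, 3.40, 5.11, 3.18, 3.77 and 3.61 CPM in medulla ASO libraries and at 1.69 to 3.18 CPM in medulla vehicle libraries. Pons had 7.70, 3.28, 4.17 and 4.46 CPM with ASO against 1.42, 1.94, 2.05 and 2.70 CPM with vehicle. C3ar1 rose by 0.93 in the mean effect (SE 0.17, adjusted p = 0.00453, edgeR), and its interaction was -0.69 (95% interval -1.39 to 0.02), or -0.85 to -0.38 without 1 library at a time. Of 19 chemokine and cytokine genes, 5 rose and 0 fell. Ccl3, Ccl6 and Ccl9, chemokines of the CC family, rose by 2.42, 0.90 and 0.46 (edgeR adjusted p = 0.00271, 0.00401 and 0.00655). Their effects were 1.41, 0.52 and 0.32 in medulla and 3.42, 1.28 and 0.60 in pons. The interactions were -2.01, -0.76 and -0.29 (edgeR unadjusted p = 0.022, 0.030 and 0.13), and none passed the adjustment. Of 20 lysosomal genes, 4 rose and 0 fell, among them Cd68, a lysosomal membrane protein of phagocytes, by 0.94 and Grn, progranulin, by 0.30 (edgeR adjusted p = 0.00507 and 0.0165). The complement, chemokine and lysosomal lists had 0 calls in medulla or pons on their own. In the mean effect, the complement list had 4 calls without pons ASO replicate 1 and 3 without the libraries low in Hox genes. The lysosomal list had 8 calls without medulla vehicle replicate 2 and 1 without the libraries low in Hox genes. With medulla batch 1 alone the complement list had 1 call, the chemokine list 2 and the lysosomal list 0, and with batch 2 alone 2, 3 and 1.

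Markers of other blood cells were also examined. Of 21 tested lymphocyte genes (26 on the list), 1 rose in the mean effect, a share near the 2.58% of all genes that rose. It was Ighm, the heavy chain of IgM. Its level was 44.7 to 65.3 CPM, with a median of 51.7 CPM, in the 7 medulla ASO libraries and 24.9 to 44.9 CPM, with a median of 33.5 CPM, in the 8 medulla vehicle libraries. Pons libraries had 41.7, 24.3, 31.7 and 26.3 CPM with ASO and 20.7, 17.8, 19.2 and 23.3 CPM with vehicle. Ighm rose by 0.64 in medulla (adjusted p = 0.0177, edgeR) and was at 0.61 in pons (adjusted p = 0.174), and wild type libraries were higher than vehicle-treated knockin libraries, at 65.0 ± 14.3 CPM in medulla (SD, n = 8). The summed level of the lymphocyte list was 50.8 to 71.3 CPM with ASO and 30.9 to 53.1 CPM with vehicle in medulla, and 31.7 to 48.9 CPM against 24.8 to 28.9 CPM in pons; Ighm makes up most of it. Of 10 border macrophage genes, which mark macrophages of vessels and meninges, and 7 red blood cell genes, 0 were called in any contrast by edgeR, with 1 of each list at an unadjusted p under 0.05 in the mean effect. The part of infiltrating or blood-borne cells in the microglial values was not tested.

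Genes of resting astrocyte function rose in the mean effect of both regions. Of all genes tested, 2.58% rose and 0.859% fell in that effect, 0.769% were called higher in medulla and 0.0141% in pons. Of 22 genes on the list, 15 rose in the mean effect and 1, Gpc5, a heparan sulphate proteoglycan, fell by 0.27. In medulla 12 were called higher, and in pons 0. The median effect was 0.34 in medulla and 0.31 in pons, and the median interaction was 0.05. Slc1a2 (chromosome 2, 102658659 to 102790784), the main glutamate transporter of the brain, was at 1370, 806, 1326, 1415, 1493, 1376 and 1202 CPM in medulla ASO libraries and at 587 to 970 CPM, with a median of 810 CPM, in medulla vehicle libraries. Its pons level was 1441, 766, 1095 and 1202 CPM with ASO and 794, 745, 670 and 674 CPM with vehicle. In both regions only the library labelled ASO replicate 2 lay within the vehicle range. Slc1a2 rose by 0.67 in the mean effect (SE 0.10, adjusted p = 0.00163, edgeR), from 0.70 in medulla (adjusted p = 0.00870) and 0.64 in pons (adjusted p = 0.133). The interaction was 0.05 (95% interval -0.37 to 0.47), near 0 and of either sign among the alternative fits. Wild type libraries had 1506 ± 65.8 CPM in medulla (SD, n = 8) and 1334 ± 37.0 CPM in pons (SD, n = 4).

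Ntsr2, a neurotensin receptor of astrocytes, was at 141, 100.2, 138, 128, 138, 138 and 139 CPM with ASO in medulla and at 87.6 to 107 CPM with vehicle. The pons libraries had 150.0, 102, 128 and 131 CPM with ASO and 99.4, 98.5, 88.7 and 93.8 CPM with vehicle. It rose by 0.43 in the mean effect (SE 0.06, adjusted p = 0.000631, edgeR), from 0.44 in medulla and 0.42 in pons, with an interaction of 0.02 (95% interval -0.23 to 0.27). Glul, glutamine synthetase, rose by 0.43 in the mean effect (adjusted p = 0.00163, edgeR). The list had 18 calls without both libraries labelled ASO replicate 2 and 13 without the libraries low in Hox genes, all 13 of them among the 16. With medulla batch 1 or batch 2 alone, 5 and 18 were called. Aqp4, the water channel of astrocyte end-feet, rose by 0.45, Kcnj10, the potassium channel Kir4.1, by 0.46 and Gja1, connexin 43, by 0.48 in the mean effect.

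Genes of reactive astrocytes, which respond to injury, were taken as a separate list. Of 28 genes 7 rose and 0 fell in the mean effect, beside 2.58% of all genes that rose, with medians of 0.08 in medulla and 0.40 in pons. In medulla 15 had a positive effect and 13 a negative one, and in pons all 28 had a positive one. In medulla or pons on their own, 0 were called. All 28 had a more positive effect in pons, 4 of them at an unadjusted p under 0.05, and 0 passed the adjustment. Gfap, the intermediate filament of astrocytes, was at 1076, 431, 568.3, 825, 897, 787 and 545 CPM with ASO in medulla and at 333 to 779 CPM with vehicle. Pons values were 1034, 390, 609 and 516 CPM with ASO and 278, 236, 223 and 396 CPM with vehicle. The groups overlapped in both regions, in pons because the library labelled ASO replicate 2 was below vehicle replicate 4. Gfap rose by 0.86 in the mean effect (SE 0.21, adjusted p = 0.0248, edgeR), a call lost without pons ASO replicate 1 or pons vehicle replicate 1, 2 or 3. Its interaction was -0.61 (95% interval -1.48 to 0.25), or -0.82 to -0.28 without 1 library at a time. Osmr, the oncostatin M receptor, rose by 0.54, C4b, a complement component that reactive astrocytes express, by 0.72 and Tgm1, a transglutaminase, by 2.72 (edgeR adjusted p = 0.0131, 0.0206 and 0.00271). Their effects were 0.26, 0.44 and 1.89 in medulla and 0.82, 1.00 and 3.55 in pons. The interactions were -0.57, -0.56 and -1.66 (edgeR unadjusted p = 0.0253, 0.108 and 0.0955), and none passed the adjustment. The list had 1 call without pons ASO replicate 1, 3 without pons vehicle replicate 1 or 2, and 2 and 3 with medulla batch 1 or batch 2 alone. The call of Osmr was lost without pons ASO replicate 1, and that of C4b without pons ASO replicate 1 or pons vehicle replicate 1 or 2.

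Some of the myelin genes rose in the mean effect of both regions. Of 23 genes of mature oligodendrocytes, 9 rose, 0 fell and 14 did not pass, beside 2.58% of all genes that rose, and 5 genes were called higher in medulla. The median effect was 0.13 in medulla and 0.25 in pons, and the median interaction was -0.10, with 21 of the 23 more positive in pons and 0 of them at an unadjusted p under 0.05. Ugt8a (chromosome 3, 125865271 to 125938619), which makes the galactolipids of myelin, was at 200.9, 164.8, 230.8, 220.4, 236.0, 229.7 and 210.3 CPM with ASO in medulla and at 129.5 to 179.8 CPM, with a median of 153.4 CPM, with vehicle. Pons had 203.8, 142.9, 170.0 and 142.3 CPM with ASO and 103.5, 95.9, 97.9 and 138.6 CPM with vehicle. In medulla only the library labelled ASO replicate 2 lay within the vehicle range, and in pons the groups were apart. Ugt8a rose by 0.54 in the mean effect (SE 0.08, adjusted p = 0.00138, edgeR), with an interaction of -0.10 (95% interval -0.43 to 0.22).

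Mobp, a structural myelin protein, rose by 0.51 and Prr18, a gene of mature oligodendrocytes, by 0.63 in the mean effect (edgeR adjusted p = 0.00248 and 0.00105). Of 15 genes of oligodendrocyte precursors, 1 was called, Sox8, a transcription factor, which fell by 0.24 (edgeR adjusted p = 0.0139), beside 0.859% of all genes that fell. Of 25 genes of cholesterol synthesis, which supplies myelin lipid, 3 rose, beside 2.58% of all genes. They were Dhcr7 by 0.23, Cyp51 by 0.23 and Idi1 by 0.22 (edgeR adjusted p = 0.00597, 0.0188 and 0.0291). The myelin list had 5 calls without pons ASO replicate 1, 5 without the libraries low in Hox genes, and 2 and 6 with medulla batch 1 or batch 2 alone. The cholesterol list had 11 calls without both libraries labelled ASO replicate 2, 6 without that of medulla alone, and 1 without pons ASO replicate 1 or 3 or pons vehicle replicate 2 or 3. The calls of Cyp51 and Idi1 were lost without each of these 4 pons libraries, and that of Idi1 also without pons vehicle replicate 1 or medulla ASO replicate 5. Without the libraries low in Hox genes, the calls of Sox8 and Idi1 were lost, as were those of C1qb, Grn, C4b and Tlr7.

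**Figure D4:**
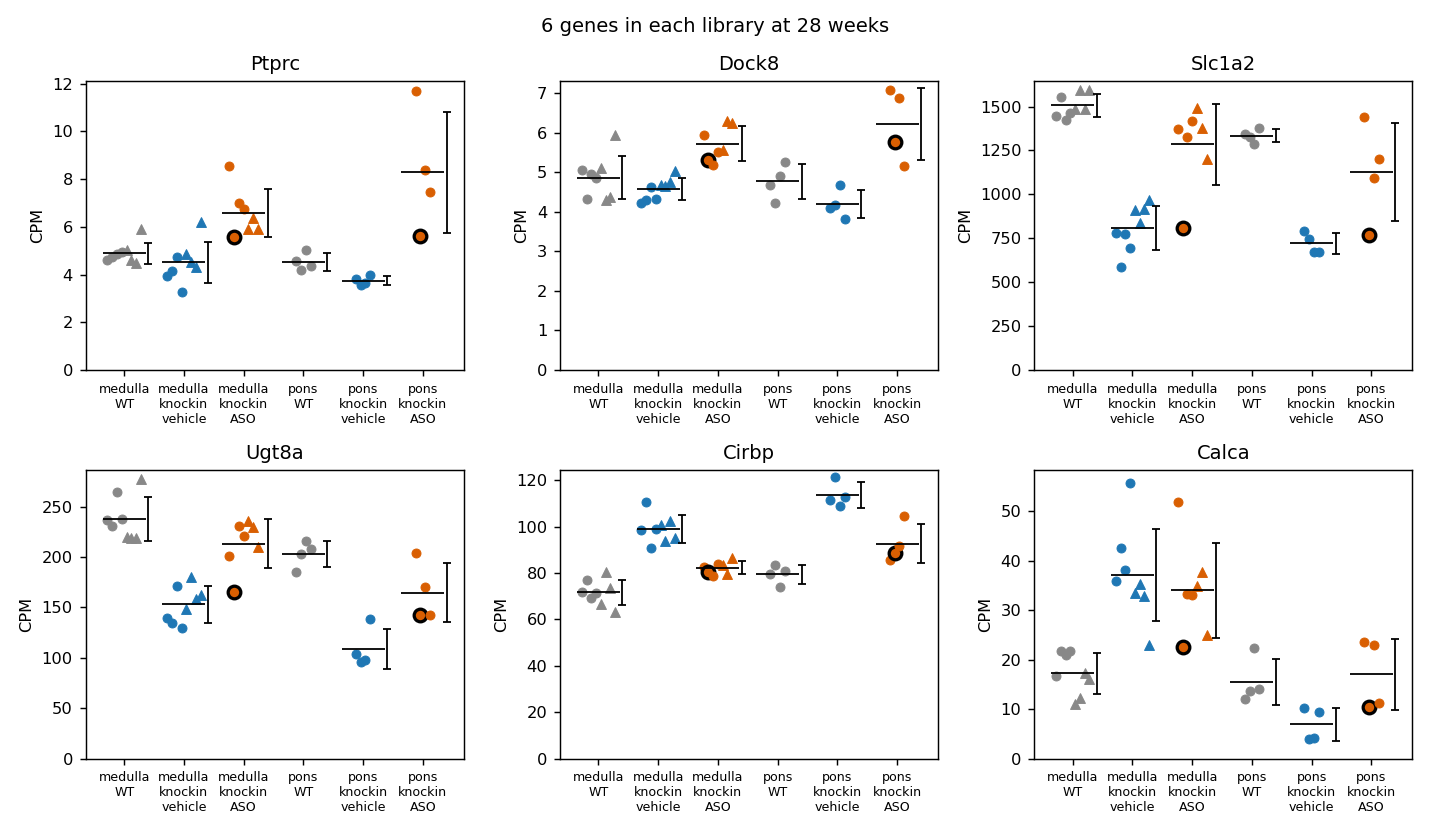
Level in CPM (y axis of each panel) of 6 genes in each library at 28 weeks, by region and group (x axis), with symbols as in the plot of Atxn1. Slc1a2 is higher with ASO in both regions except in the ringed libraries, Ugt8a is higher with ASO in both regions except in the ringed medulla library, Cirbp is lower with ASO without overlap in either region, and Calca is higher with ASO in pons, at 10.4 to 23.5 CPM against 4.01 to 10.2 CPM, and overlaps in medulla.

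Of the 183 genes that fell in the mean effect, Cirbp had the smallest adjusted p of those named here. Cirbp (chromosome 10, 80165985 to 80172786), a cold-inducible RNA-binding protein, was at 78.9 to 86.5 CPM, with a median of 82.7 CPM, in the 7 medulla ASO libraries and at 90.9 to 111 CPM, with a median of 98.7 CPM, in the 8 medulla vehicle libraries. The pons libraries had 85.8, 88.5, 91.7 and 105 CPM with ASO and 111, 122, 109 and 113 CPM with vehicle. The groups did not overlap in either region; of all genes tested, 0.0845% had every ASO library below every vehicle library in medulla and 3.71% in pons. Cirbp was below the vehicle libraries in both libraries labelled ASO replicate 2, at 80.5 CPM (medulla) and 88.5 CPM (pons). Cirbp fell by 0.28 in the mean effect (SE 0.04, adjusted p = 0.000549, edgeR), from -0.26 in medulla (adjusted p = 0.00807) and -0.30 in pons (adjusted p = 0.0755), with an interaction of 0.03 (95% interval -0.12 to 0.18). Wild type libraries had 71.7 ± 5.51 CPM in medulla (SD, n = 8) and 79.4 ± 4.06 CPM in pons (SD, n = 4).

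Tgif2, a homeodomain repressor of TGF-beta signalling, fell by 0.65 in the mean effect, Zfp64, a zinc finger protein, by 0.24 and Nfyb, a subunit of the CCAAT-binding factor NF-Y, by 0.17 (edgeR adjusted p = 0.00171, 0.00152 and 0.00521). Spag6, a protein of the central apparatus of motile cilia, was the 1 called gene of 15 on the cilia list, beside 0.859% of all genes that fell. It fell by 1.11 (SE 0.21, adjusted p = 0.00640, edgeR). It was at 2.96, 6.19, 2.17, 3.02, 3.39, 1.71 and 1.79 CPM with ASO in medulla against 4.11 to 9.47 CPM with vehicle, and at 1.29, 2.09, 1.09 and 1.38 CPM with ASO in pons against 2.70 to 3.47 CPM with vehicle. The library labelled ASO replicate 2 was the highest ASO library of both regions, and in medulla it alone lay within the vehicle range. Exons of Atxn1, Slc1a2, Glul, Spag6 and Tgif2 overlap those of a gene on the other strand, so that their counts could include reads of that gene if strand was not used.

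Among the medulla calls of smallest p that belong to no list were Acvr1c, a TGF-beta family receptor, Pitpnc1, a phosphatidylinositol transfer protein, and Kctd3, which binds HCN channels. They rose in medulla by 0.42, 0.31 and 0.33 (edgeR adjusted p = 0.00807 for each). Their effects in pons were 0.13, 0.15 and 0.26 (adjusted p = 0.688, 0.444 and 0.174), and their interactions were 0.29, 0.16 and 0.07, of which none passed. Of 24 ion channel genes, 2 rose in medulla, beside 0.769% of all genes. They were Kcnn2, a calcium-activated potassium channel, by 0.29 and Kcnc1, a fast potassium channel of rapidly firing neurons, by 0.27 (edgeR adjusted p = 0.00870 and 0.0195). Their effects in pons were 0.19 and 0.12, with adjusted p = 0.321 and 0.648. Prob1 fell in medulla by 0.38 (adjusted p = 0.0152, edgeR) and was at -0.26 in pons (adjusted p = 0.343). The calls in medulla of Acvr1c, Pitpnc1, Kctd3, Kcnn2, Kcnc1 and Prob1 were all lost without the 4 libraries low in Hox genes, as were the medulla calls of Slc1a2, Ntsr2 and Cirbp, whose mean effects remained called. That of Kcnc1 was also lost without medulla ASO replicate 3 or 6 or medulla vehicle replicate 4, and that of Prob1 without medulla ASO replicate 6.

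Genes of motor and autonomic neurons were among those with an unadjusted p under 0.05 for a more positive effect in pons. Calca (chromosome 7, 114631478 to 114636357), which encodes calcitonin and the neuropeptide CGRP of motor and parabrachial neurons, was at 22.5 to 51.8 CPM, with a median of 33.2 CPM, in medulla ASO libraries and at 22.9 to 55.8 CPM, with a median of 35.6 CPM, in medulla vehicle libraries. Its pons level was 23.5, 10.4, 23.01 and 11.2 CPM with ASO and 10.2, 4.01, 4.18 and 9.35 CPM with vehicle. The groups overlapped in medulla and were apart in pons, where ASO replicates 2 and 4 lay just above the highest vehicle library. Its effect was -0.13 in medulla and 1.30 in pons (adjusted p = 0.902 and 0.153), and the interaction was -1.43 (95% interval -2.30 to -0.56, unadjusted p = 0.00279, adjusted p = 0.9996, edgeR).

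Of 14 genes on a list for cholinergic motor neurons, which Calca belongs to, 0 were called in any contrast by edgeR, with 8 at an unadjusted p under 0.05 in the mean effect and 10 in pons. The median effect was -0.06 in medulla and 0.84 in pons, all 14 had a more positive effect in pons, and 8 had an unadjusted p under 0.05 in that direction, again beside 2.07% of all genes. Chat, the enzyme that makes acetylcholine, was at 16.4, 9.89, 13.9 and 8.41 CPM with ASO in pons and at 8.97, 7.28, 6.85 and 7.52 CPM with vehicle, so that the groups overlapped, with an interaction of -0.82 (95% interval -1.45 to -0.20, unadjusted p = 0.0121, edgeR). Prph, the intermediate filament peripherin of motor neurons, had an interaction of -1.004 and Dbh, the enzyme that makes noradrenaline, of -1.03 (unadjusted p = 0.00575 and 0.00747, edgeR). Dbh is on the list for monoamine neurons, of whose 14 genes 11 had a more positive effect in medulla, with a median interaction of 0.31. Wild type pons had 16.9 ± 3.54 CPM of Chat and 35.99 ± 4.22 CPM of Dbh (SD, n = 4), and vehicle-treated knockin pons 7.66 ± 0.922 CPM and 6.30 ± 0.418 CPM (SD, n = 4). The 14-gene list had mean log2 CPM of 2.86, 2.30, 2.59 and 2.03 in pons ASO libraries, of 2.03, 1.27, 1.35 and 1.77 in pons vehicle libraries and of 2.37 to 2.83 in wild type pons. The Hox genes, which mark the position along the brainstem, had a median ASO effect of -0.41 in medulla and 0.26 in pons and a median interaction of -0.56, with 0 of 19 called and 0 at an unadjusted p under 0.05. The part of tissue position in the motor neuron values was not tested. Without the 4 medulla libraries low in Hox genes the interaction was -1.46 for Calca and -0.81 for Chat. All pons libraries stayed in that fit, so it does not bear on tissue position in pons.

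**Figure D5:**
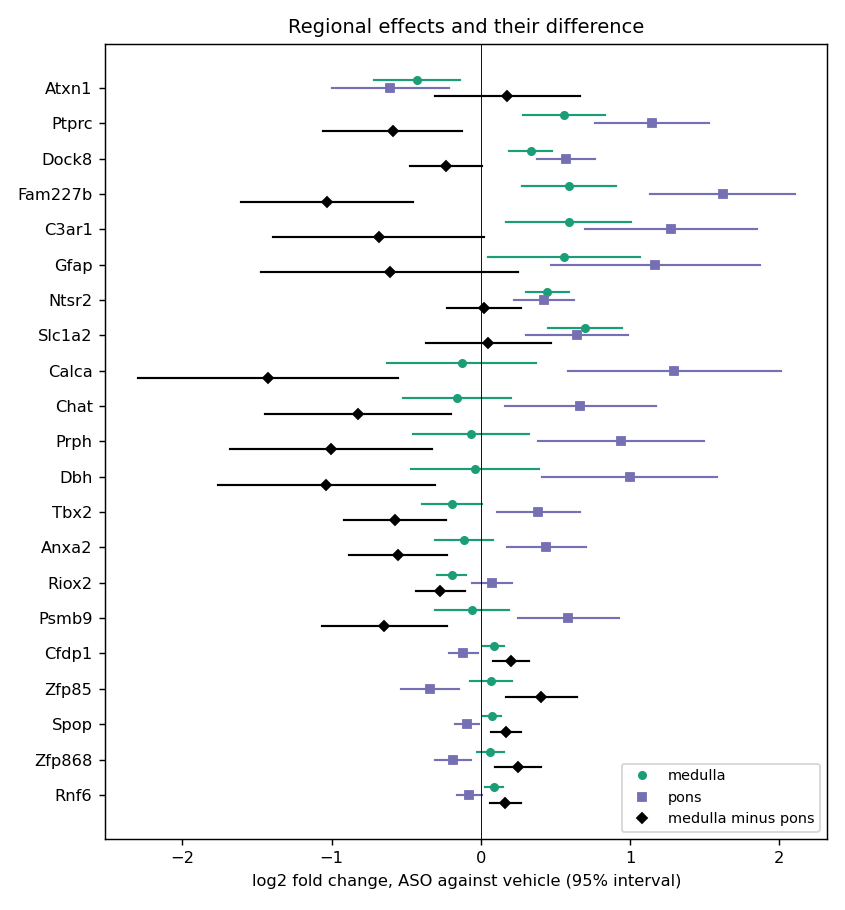
ASO effects in medulla (green circles) and pons (purple squares) and their difference (black diamonds), as log2 fold changes with 95% intervals (x axis), for 21 named genes (y axis). The differences of Ntsr2 and Slc1a2 lie close to 0, and those of Calca, Prph and Dbh between -1.43 and -1.004, while none passed the adjustment over 21314 genes.

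Further genes on the same side were Tbx2, a transcription factor, with an interaction of -0.58, Anxa2, a calcium-binding membrane protein, with -0.56, and Riox2, a ribosomal oxygenase, with -0.27 (unadjusted p = 0.00206, 0.00212 and 0.00243, edgeR). Anxa2 was at 26.6, 31.1, 32.1 and 26.9 CPM with ASO in pons, above 21.1, 17.3, 21.2 and 26.4 CPM with vehicle, and overlapped in medulla, at 29.8 to 42.1 CPM with ASO and 31.6 to 50.5 CPM with vehicle. On the other side, the genes of smallest p were Cfdp1, a chromatin factor of craniofacial development, with an interaction of 0.20, Zfp85 with 0.41, Spop, a substrate adaptor of a ubiquitin ligase, with 0.17, Zfp868 with 0.25 and Rnf6, a ubiquitin ligase, with 0.16 (unadjusted p = 0.00193, 0.00199, 0.00229, 0.00240 and 0.00290, edgeR). None of these 8 genes passed the adjustment for the interaction (adjusted p = 0.9996 for each). Riox2 fell in medulla by 0.20 (edgeR adjusted p = 0.0454) and was at 0.08 in pons (adjusted p = 0.760).

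No gene of the interferon response or of antigen presentation was called. Of 34 interferon response genes 0 were called in any contrast by edgeR (3 at an unadjusted p under 0.05 in the mean effect), with medians of -0.09 in medulla and 0.07 in pons. Irf7, which amplifies that response, was at 7.18 ± 0.948 CPM with ASO (SD, n = 7) and 7.17 ± 1.58 CPM with vehicle (SD, n = 8) in medulla. In pons it was at 7.21 ± 0.686 CPM and 6.99 ± 0.379 CPM (SD, n = 4 each). Wild type libraries were lower, at 3.34 ± 0.472 CPM in medulla (SD, n = 8) and 2.90 ± 0.533 CPM in pons (SD, n = 4). Of 22 antigen presentation genes 0 were called (2 at an unadjusted p under 0.05 in the mean effect), with medians of -0.09 in medulla and 0.15 in pons. Of them 8 had an unadjusted p under 0.05 for a more positive effect in pons, beside 2.07% of all genes. Psmb9, an immunoproteasome subunit whose exons overlap those of Tap1, had the smallest, at -0.65 (unadjusted p = 0.00422, edgeR). Of 18 tested genes of nucleic acid sensing and ASO handling (20 on the list), 1 rose in the mean effect, beside 2.58% of all genes. It was Tlr7, the receptor for single-stranded RNA, which rose by 0.64 (edgeR adjusted p = 0.0126). Of 19 Capicua targets, genes that the ataxin-1 complex represses, 0 were called (2 at an unadjusted p under 0.05 in the mean effect, both lower), with medians of 0.03 in medulla and 0.05 in pons.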

How the data were processed

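Libraries from total RNA were stranded, per the labels' protocols. The authors deposited whole-number read counts per gene in 1 table of 49670 gene IDs and 65 libraries, of which every column could be matched to a library (0 left out). CASAVA 1.8 made the base calls, HISAT2 2.0.2 aligned to GRCm38 and featureCounts of Subread counted, per the submitters' processing notes; strand and pair settings are not given in the sources used here. Between 69.6% and 73.8% of counts from 1 to 20 were even, so read pairs may count as 2. Exons of 22 of the 64 named genes overlap another gene, 21 on the other strand. Symbols came from GENCODE vM21 (49325 IDs).

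The 23 libraries were fitted jointly with edgeR 4.0.16 (R 4.3.3): 4 group means plus a term for medulla batch 2, TMM scaling, filterByExpr at a minimum count of 10, robust quasi-likelihood tests. DESeq2 1.42.0 and limma 3.58.1 were alternatives. The main fit had no term for the header number. The design was not taken from a statement of the authors. List scores use log2 CPM with a prior count of 2. The procedure was tested on simulated data. Members, lists and tests were chosen with earlier results of these data known. Named genes are Atxn1, the called genes of smallest p per contrast and direction (5 of smallest p where none was called for the interaction) with average log2 CPM of at least 1, up to 3 genes per list, and 10 set genes; provisional symbols were left out, and some genes that the rule names are not reported here. Fam227b, Gpc5, Aqp4, Kcnj10 and Gja1 fall outside this rule and were chosen after their values were seen.

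Same-numbered medulla batch 1 and pons libraries of a treatment share the number that ends their column header, and they were taken as pairs from the same mouse, which the headers do not state. Deviations from group means correlated in 6 of the 8 pairs at over 0.1 (range -0.23 to 0.49), and 5 libraries correlated best with their own partner. Each library was left out in turn, and other filters, scalings, tools, blocks and subsets of libraries were tried. No pair of columns was identical.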

Additional observations from a re-analysis of the deposited data

Results flagged for a closer look

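For 19 genes whose library values are printed, each of the 4 groups was examined for a library whose gap to its nearest neighbour is large against the range of the group (Dixon's 95% critical value), which chance gives in about 1 of 20 groups. Of 76 groups 5 were marked, all 5 with ASO. The medulla library labelled ASO replicate 2 accounted for 4: it was highest for Atxn1, at 50.4 CPM, and for Spag6, at 6.19 CPM, and lowest for Ntsr2, at 100.2 CPM, and Slc1a2, at 806 CPM. Medulla ASO replicate 1 was highest for Chat, at 29.7 CPM. No cause of these values was tested.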

How the results depend on the processing

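The interaction had 0 calls in every alternative run. For calls in medulla, pons, the mean effect and both regions (204, 3, 732 and 2 as reported), DESeq2 gave 535, 249, 1228 and 68, and a fit of all 35 libraries with wild type gave 376, 159, 1113 and 52. Without both libraries labelled ASO replicate 2 they were 457 in medulla, 245 in pons and 129 in both; without these and medulla vehicle replicate 2, a choice made after seeing the data, 746, 345, 1547 and 196. Medulla batch 1 alone gave 0, 0, 76 and 0, with 5 calls on the activated microglia list, 5 on the astrocyte list and 2 on the myelin list. Medulla batch 2 alone gave 1 in pons, 0 in both and 9 activated microglia calls. Without the libraries low in Hox genes there were 0 in medulla, 337 in the mean effect and 0 in both, with 11 activated microglia and 5 myelin calls. Without the batch term there were 125 in medulla and 0 in both; without the filter 1 in both; with limma's voom 0 in pons and 0 in both. With the replicate number as a block for all groups there were 0 in pons and 0 in both, and with the pairing by header number as a correlation, added after seeing the data, 0, 0 and 11 activated microglia calls; same-numbered ASO and vehicle libraries share only a number (2 of 8 pairs correlated at over 0.1). The Atxn1 difference was -10.2 CPM in medulla batch 1 (exact permutation p = 0.14). It was -23.9 CPM in pons without both libraries labelled ASO replicate 2, which were singled out by their Atxn1 level (exact permutation p = 0.029, the smallest possible). The cause of these changes was not tested.

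Without 1 library at a time the counts ranged from 43 to 415 in medulla, 0 to 143 in pons, 246 to 1144 in the mean effect, 0 to 51 in both, 11 to 21 for activated microglia, 13 to 18 for astrocytes and 5 to 13 for myelin; the Atxn1 difference from -14.5 to -10.3 CPM in medulla and from -23.9 to -15.6 CPM in pons. The medulla count moved by over 1.5 times without ASO replicates 1 to 6 (94, 415, 69, 100, 74 and 43) or vehicle replicates 2 and 4 to 7 (310, 97, 111, 117 and 105). The mean-effect count did so without medulla vehicle replicate 2 (1144), pons ASO replicates 1 and 3 (246 and 455) or pons vehicle replicates 1 to 3 (443, 422 and 420). The pons count became 34 without medulla ASO replicate 2, 5 without medulla vehicle replicate 2 or 8, 10 without pons ASO replicate 4, 32 without pons vehicle replicate 4, and 0 without pons ASO replicate 1 or 3 or pons vehicle replicate 1 or 2. The interaction changed sign, uncalled, for Slc1a2 (-0.051 with batch 2, -0.024 without both ASO replicates 2, -0.075 without these and medulla vehicle replicate 2, -0.095 to 0.19 without 1 library) and Ntsr2 (-0.0040 with batch 1, -0.023 without both ASO replicates 2, -0.010 without the libraries low in Hox genes, -0.019 with the replicate block by header number, -0.016 without ASO replicates 2 and medulla vehicle replicate 2, -0.074 to 0.11). Of 61 called gene results, 10 kept the call in every alternative that gave a value; of 24 uncalled ones, 2, Atxn1 in each region, were called in some. Ccl3, Tgm1 and Fam227b fell below a filter at an average log2 CPM of 0 and have no value there. Cst7, Itgax and Fam227b lie near or below 1 CPM in vehicle libraries, and whether depth limits them was not tested.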

Other observations

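Neuronal and vascular lists held from 0 to 2 called genes each in the mean effect of both regions, where 3.43% of all genes were called. Of 18 immediate early genes, which neurons switch on with activity, Arc rose by 0.37 and Jun by 0.22 (log2, edgeR adjusted p = 0.00578 and 0.0239). Of 16 genes of glycine and GABA transmission 1 rose, Slc6a9, the glial glycine transporter, by 0.27 (adjusted p = 0.00850). Of 18 endothelial and pericyte genes, Vegfa, a vascular growth factor whose loss has been tied to this disease, rose by 0.14 and Slc2a1, the glucose transporter of brain vessels, by 0.19 (adjusted p = 0.0247 and 0.0301). Of 20 neuropeptide genes, 1 rose, Crh, by 0.42 (adjusted p = 0.0322). All 18 endothelial and pericyte genes had a more positive effect in pons, with medians of 0.008 in medulla and 0.28 in pons. Of them 4 had an unadjusted p under 0.05 in that direction, beside 2.07% of all genes, and 0 passed the adjustment. In pons 10 of the 18 had every ASO library above every vehicle library, beside 3.32% of all genes. The calls of Vegfa, Slc2a1, Crh and Jun were each lost without pons ASO replicate 1 and in further fits without 1 library. Of 16 glutamate transmission genes, 13 neurofilament and axon genes and 15 heat shock chaperones, 0 were called in any contrast by edgeR, with 1, 4 and 1 at an unadjusted p under 0.05 in the mean effect. Of 12 proliferation genes 1 was called, Tpx2, a spindle protein, which fell by 0.28 (adjusted p = 0.0472).

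Of 14 monoamine neuron genes 0 were called, with 3 at an unadjusted p under 0.05 in the mean effect and medians of 0.34 in medulla and 0.10 in pons. Of 12 Purkinje cell genes 0 were called, with 1 at an unadjusted p under 0.05 in the mean effect. Their median effect was 0.33 in medulla and -0.09 in pons, and all 12 had a more positive effect in medulla. The cerebellar granule cell list had its highest mean log2 CPM in medulla ASO replicate 6, at 6.18, and in medulla vehicle replicate 2, at 5.85, against 3.57 to 5.43 in the other knockin medulla libraries. Medulla ASO replicate 6 was also among the libraries low in Hox genes. The part of cerebellar tissue in these values was not tested.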
